A study of Macaca mulatta with 10 samples.

Results

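The genes described here set how much active thyroid hormone a testis cell holds and how the cell reads it. They are the deiodinases DIO2 and DIO3, the nuclear receptors THRA and THRB, and CRYM, which binds the hormone in the cytosol. Members were taken by gene name from a table of counts per locus, and each of the 5 names had 1 row among the 26813 loci of that table, so none was missing. The names were a choice made with earlier results of these data known. Their levels were therefore described animal by animal, and tests were run over every locus with the members' rows read from that fit.

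Thyroid hormone reaches a tissue mainly as the prohormone T4. DIO2, type II deiodinase, converts T4 to the active hormone T3, and its gene is known in other tissues to respond to cyclic AMP. DIO3, type III deiodinase, inactivates both T4 and T3, and is high in fetal and immature tissues. THRA and THRB encode receptors that sit on DNA with retinoid X receptors, repress target genes when empty and activate them when T3 is bound. In rodents, T3 acting through Thra limits how long immature Sertoli cells, the supporting cells of the seminiferous tubule, go on dividing. CRYM, mu-crystallin, is an NADPH-dependent T3-binding protein.

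The tissue was the right testis of juvenile wild type male rhesus macaques, 10 animals in all, each giving 1 library of strand-specific total RNA. Vehicle was infused in 3 animals, TP07, TP09 and TP11, which were 24, 14 and 15 months old. FSH and LH, the pituitary gonadotropins that act on Sertoli and Leydig cells, were infused in pulses for 48 h in TP08, TP10 and TP12, aged 22, 14 and 15 months. The same infusion ran for 96 h in TP15, TP16, TP17 and TP18, all 14 months old. Neither the length of the vehicle infusion nor a sequencing batch is given in the sources used here. The 96 h animals also have the highest animal numbers, so handling in that order and the duration of treatment cannot be told apart. Each library came from its own animal, and p-values measure the spread between animals.

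Libraries held 21824233 to 30375928 counts. Levels are given in CPM, a gene's count relative to the total of its library, scaled between libraries by TMM. A gene was called where edgeR's quasi-likelihood test gave a Benjamini-Hochberg adjusted p below 0.05 over all loci. By that rule 12.2% of loci were called between 48 h and vehicle, 17.5% between 96 h and vehicle, and 1.07% between 96 h and 48 h. Both comparisons with vehicle use the same 3 vehicle animals, so their values stand side by side and are not independent of each other. All 6 Leydig cell markers were measured, and their summed level was 179.2 to 326.2 CPM in vehicle, 1665 to 2067 CPM at 48 h and 1219 to 1524 CPM at 96 h. The 5 measured germ cell markers summed to 238 to 305.3 CPM in vehicle, 142.7 to 176.7 CPM at 48 h and 128.4 to 185.5 CPM at 96 h. The 8 Sertoli cell markers summed to 1549 to 1988 CPM in vehicle, 1765 to 2309 CPM at 48 h and 1655 to 2023 CPM at 96 h. No measured marker of these 3 cell types was at 0 in any library. These are whole testes, so fewer cells of a type and less RNA per cell cannot be told apart in any value that follows.

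DIO2 and THRB were the members that passed the test, DIO2 with higher and THRB with lower levels after gonadotropin. At 48 h, 1 of 5 members was called higher, where 8.53% of all loci were, and 1 of 5 lower, where 3.67% were. At 96 h the counts were again 1 and 1, against 10.6% and 6.89% of all loci. Between 96 h and 48 h edgeR called 0 of 5, and DESeq2, exactTest and limma-voom also called 0. An unadjusted p below 0.05 was reached by 4 of 5 members at 48 h, 2 at 96 h and 0 between 96 h and 48 h, beside 27.9%, 34.1% and 20.9% of loci. Libraries did not overlap at 48 h for 1 member higher and 3 lower than vehicle (18.1% and 18% of loci), and at 96 h for 0 higher and 2 lower (15.9% and 14.9% of loci). Between 96 h and 48 h the libraries of every member overlapped, where 7.93% of loci were higher and 8.61% lower without overlap. The median log2 fold change over the 5 members was -0.55 at 48 h and -0.33 at 96 h, beside -0.071 and -0.012 over all loci.

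**Figure D1:**
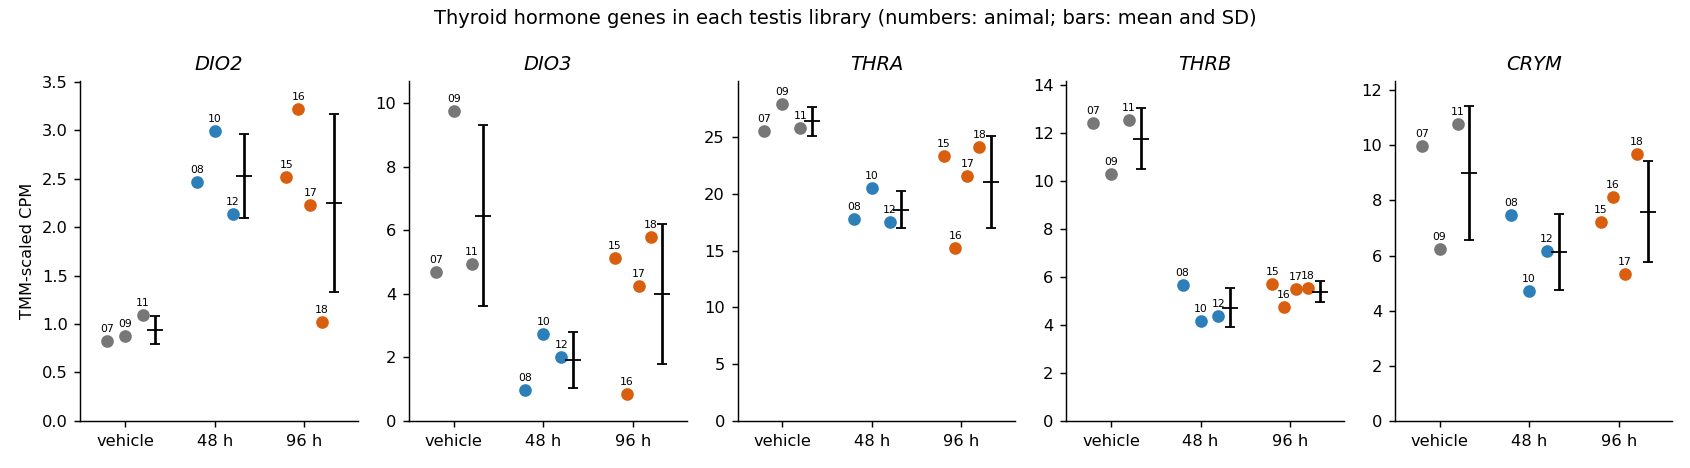
Each panel plots the TMM-scaled CPM of 1 gene (y axis) in every library, with vehicle, 48 h and 96 h along the x axis, animal numbers beside the points, and the group mean and SD as bars. DIO2 lay between 2.14 and 2.99 CPM at 48 h and THRB at or under 5.71 CPM after either infusion, and TP16 and TP18 stand apart within the 96 h group for DIO3 and DIO2.

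Among the enzymes, DIO2, which makes T3, was the least abundant member per kilobase of exon and rose after gonadotropin. Its gene lies on chromosome 7, 142709086 to 142931559 on the minus strand of rheMac8, with 6 transcript models. DIO2 had 0.826, 0.878 and 1.10 CPM in vehicle animals TP07, TP09 and TP11. It had 2.46, 2.99 and 2.14 CPM in the 48 h animals TP08, TP10 and TP12. At 96 h it had 2.52, 3.22, 2.23 and 1.02 CPM in TP15 to TP18. Every 48 h library was above every vehicle library, whereas TP18 at 96 h lay inside the vehicle range. The counts behind these values were small, from 22 in TP09 to 89 in TP16. Loci were kept at a CPM of 1 in at least 3 libraries, and TP11 was the only vehicle library above 1. DIO2 thus met that cut-off through gonadotropin libraries, which limits how its rise over vehicle can be read.

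The group means of DIO2 were 0.934 ± 0.145 CPM in vehicle, 2.53 ± 0.43 CPM at 48 h and 2.25 ± 0.92 CPM at 96 h (SD, n = 3, 3 and 4). DIO2 rose at 48 h against vehicle by 1.43 ± 0.37 on the log2 scale (SE), or 2.7-fold, with an edgeR adjusted p of 0.029. It also rose at 96 h against vehicle, by 1.26 ± 0.36 or 2.39-fold, with an edgeR adjusted p of 0.0337. The log2 difference of 96 h over 48 h was -0.17 ± 0.33, with an interval of -0.9 to 0.56.

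Both DIO2 calls were close to the threshold and needed nearly every animal. The 48 h call was lost when any 1 of TP07, TP08, TP09, TP10, TP11 or TP12 was left out, with log2 fold changes of 1.29 to 1.57 over all single omissions and edgeR adjusted p up to 0.0939. The 96 h call was lost without TP07, TP09, TP11, TP15, TP16 or TP17, over a range of 1.02 to 1.5 and adjusted p up to 0.113. Both calls were also lost in a fit that blocked on age class (that is, 14 months, 15 months, and above 20 months), at edgeR adjusted p of 0.0522 and 0.203, and without the animals over 20 months, TP07 and TP08, at 0.178 and 0.143. Fits that left out compared animals also called fewer of all loci higher. Leaving out 1 compared animal gave 1240 to 1954 loci higher at 48 h, against 2288 in the main fit. At 96 h it gave 1592 to 2777, against 2836. Without the animals over 20 months 696 and 1449 were called higher, and with age class as a block 2278 and 1350. Leydig cell markers moved with DIO2, with 5 of 6 called higher at each time. So did markers of other cell types: of 8 Sertoli cell markers 3 were called higher at 48 h and 4 at 96 h, of 5 peritubular markers 2 and 3, and of 5 macrophage markers 0 and 2. Peritubular markers summed to 352.8 to 391.2 CPM in vehicle, 567 to 868.3 CPM at 48 h and 489.9 to 1124 CPM at 96 h, and macrophage markers to 56.3 to 116.2 CPM, 84.5 to 140.4 CPM and 108.2 to 217.5 CPM in the same order. The part of these cell types in the DIO2 result was not tested. Within the 48 h group the animals had the same order by DIO2, by summed Leydig markers and by summed peritubular markers. Sertoli, germ cell, macrophage and endothelial markers gave other orders there. In vehicle, Leydig, peritubular, macrophage and red blood cell markers all gave the order of DIO2. Orders of 3 animals readily match by accident, and nothing is drawn from them. Within the 96 h group TP18 was lowest in DIO2 and in Leydig markers, with 1219 CPM of markers beside 1350 to 1524 CPM in the others. The highest 96 h animal was TP16 for DIO2 but TP15 for Leydig markers, and TP16 was the lowest for peritubular markers.

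DIO3, which destroys the hormone, had its lowest group mean at 48 h. The gene is a single exon of 2102 bases on chromosome 7, 163900878 to 163902979 on the plus strand. DIO3 had 4.69, 9.74 and 4.94 CPM in vehicle animals TP07, TP09 and TP11, and 0.978, 2.74 and 2.01 CPM in 48 h animals TP08, TP10 and TP12. At 96 h it had 5.13, 0.832, 4.25 and 5.80 CPM in TP15 to TP18. The 48 h libraries lay wholly below the vehicle libraries, while 3 of the 4 libraries at 96 h were within 4.25 to 5.80 CPM and TP16 was the lowest of all 10.

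The DIO3 means were 6.46 ± 2.85 CPM in vehicle, 1.91 ± 0.89 CPM at 48 h and 4.004 ± 2.207 CPM at 96 h (SD, n = 3, 3 and 4). The log2 fold change at 48 h was -1.76 ± 0.62, the largest of any member in size, but it did not pass the main test, with an edgeR adjusted p of 0.0945. It did pass with DESeq2 (adjusted p = 0.0224), with exactTest (0.0433) and in a fit of the 48 h and vehicle groups alone (0.0418). It also passed in the fit of all groups without TP16 (0.018). In 9 of 12 alternatives and 9 of 10 single omissions it was not called. The edgeR adjusted p there reached 0.296 without the animals over 20 months and 0.26 without TP08. The authors' deposited table gives the same contrast a log2 fold change of -1.76 and an FDR of 0.0208. Those values come from edgeR's exactTest on the same counts, so they are not independent of the tests above. At 96 h the log2 fold change over vehicle was -0.69 ± 0.56 with an edgeR adjusted p of 0.41, and 96 h over 48 h gave 1.06 ± 0.59 with an edgeR adjusted p of 0.321. The 96 h value against vehicle moved to -0.27 without TP09, to -0.35 without TP16 and to -1.27 with age class as a block, and was not called in any of these. With age class as a block it leans most, among vehicle animals, on TP09, the only vehicle animal of the same age as the 96 h animals.

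TP16 was the 96 h animal with the highest DIO2 and the lowest DIO3, and TP18 the one with the lowest DIO2 and the highest DIO3. Taken within each library and per kilobase of exon, the log2 ratio of DIO2 over DIO3 was -4.16, -5.12 and -3.82 in TP07, TP09 and TP11. It was -0.32, -1.52 and -1.56 in TP08, TP10 and TP12. At 96 h it was -2.68, 0.30, -2.58 and -4.16 in TP15 to TP18. The 48 h ratios were all above the vehicle ratios, and at 96 h TP18 had the same ratio as TP07 while TP16 was the only library with more DIO2 than DIO3. Mean log2 ratios were -4.37 ± 0.68 in vehicle, -1.13 ± 0.71 at 48 h and -2.28 ± 1.87 at 96 h (SD), and no test was run on them.

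**Figure D2:**
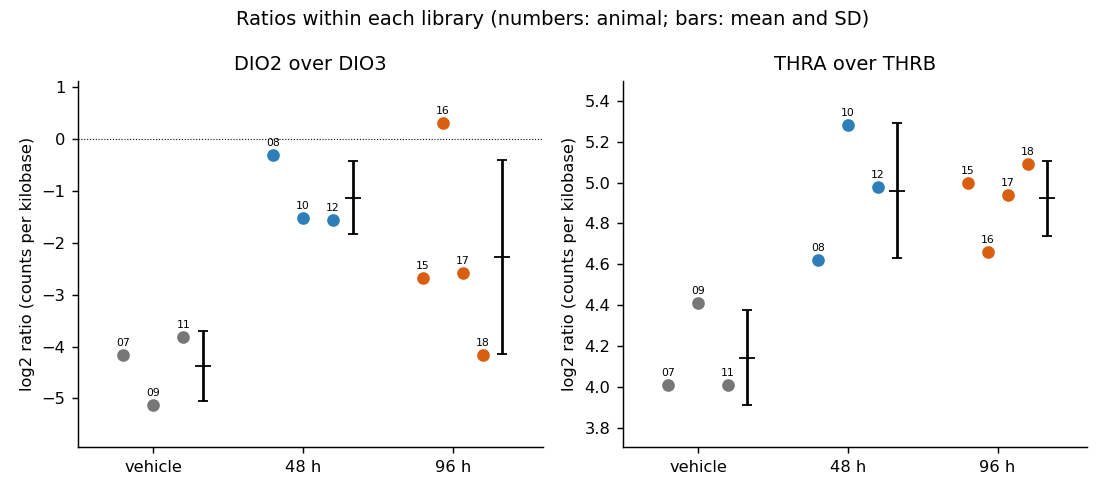
The y axes give the log2 ratio of counts per kilobase within each library, DIO2 over DIO3 on the left and THRA over THRB on the right, for vehicle, 48 h and 96 h. Points are animals and bars the mean and SD; the deiodinase ratio spread from -4.16 to 0.30 among the 96 h animals, and every gonadotropin library lay above every vehicle library for the receptor ratio.

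DIO3 ends a stretch of chromosome 7 that is imprinted in mammals and begins with DLK1, so its neighbours were read as well, a choice made after their values were seen. An unnamed locus on the opposite strand, 163892015 to 163900071, stopped 806 bases before the DIO3 exon. This locus had 11.6, 28.7 and 15.8 CPM in vehicle animals TP07, TP09 and TP11. It had 1.62, 4.87 and 3.62 CPM in TP08, TP10 and TP12 at 48 h, and 11.7, 2.68, 6.73 and 10.8 CPM in TP15 to TP18 at 96 h. The 48 h libraries lay below all vehicle libraries, and TP09 and TP16 again held the highest and the lowest values of their groups.

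At 48 h against vehicle the unnamed locus fell by 2.47 ± 0.59 on the log2 scale with an edgeR adjusted p of 0.0233, and had -1.23 ± 0.51 at 96 h with an edgeR adjusted p of 0.124. The 48 h call was lost without TP08, TP09 or TP12, over a range of -2.83 to -2.02, and without both animals over 20 months. Its count was 1.58 to 3.22 times that of DIO3 in the same library, and among 24349 loci it had the profile nearest to that of DIO3 over the 10 libraries, with a root mean square difference of 0.37 on the log2 scale. These values come from 2 loci read in the same libraries, and whether reads of either were counted for the other was not tested.

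DLK1, at the other end of the stretch from 163053195 to 163061713, encodes a membrane protein of immature cells and had 45.3 ± 1.3 CPM in vehicle, 134 ± 24 CPM at 48 h and 130 ± 22 CPM at 96 h. It rose by 1.57 ± 0.16 at 48 h and by 1.52 ± 0.15 at 96 h on the log2 scale (edgeR adjusted p = 0.00049 and 0.000259), and was called under every alternative and single omission tried. RTL1, from 163218898 to 163223817, averaged 4.69 ± 1.32 CPM in vehicle, 5.04 ± 1.65 CPM at 48 h and 9.36 ± 4.42 CPM at 96 h, with log2 fold changes of 0.11 ± 0.39 at 48 h and 1.00 ± 0.37 at 96 h that were not called by edgeR. RTL1 was called at 96 h with DESeq2 and without TP18, and its 96 h value ran from 0.65 to 1.22 over the omissions.

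**Figure D3:**
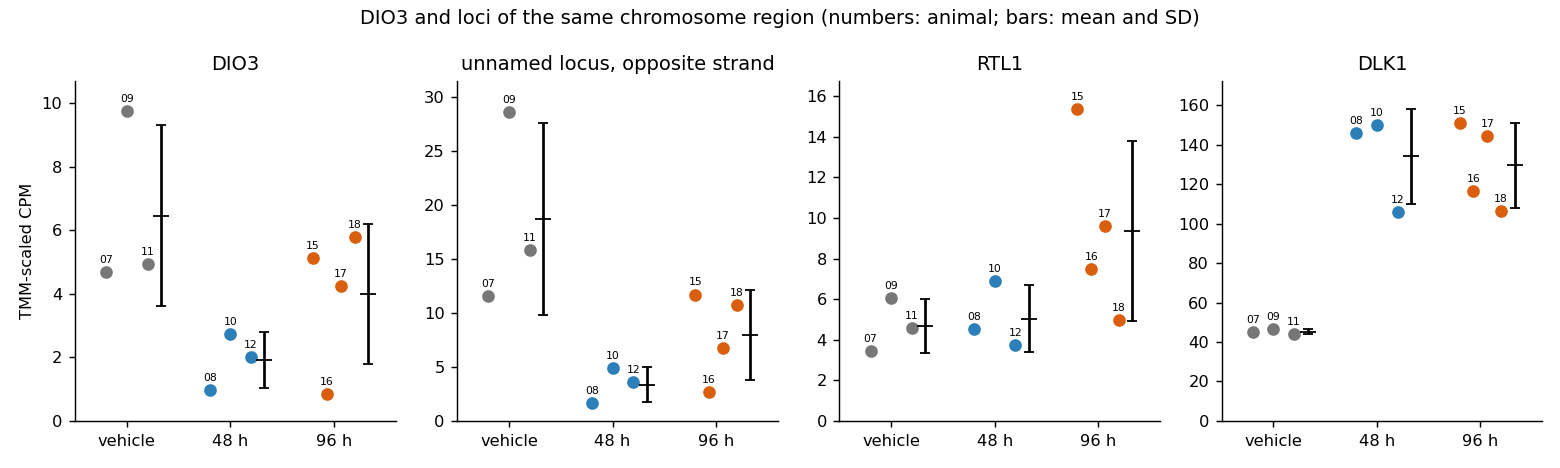
TMM-scaled CPM (y axes) of DIO3, the unnamed locus next to it, RTL1 and DLK1 in each library, grouped as vehicle, 48 h and 96 h, with group mean and SD as bars. DIO3 and the unnamed locus are lowest at 48 h and in TP16, whereas DLK1 is at 106 CPM or more in every gonadotropin library, against 44.2 to 46.7 CPM in vehicle.

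THRA was the most abundant member by length. Its row spans chromosome 16, 45863240 to 45885526 on the plus strand. THRA had 25.5, 27.9 and 25.8 CPM in vehicle animals TP07, TP09 and TP11. It had 17.8, 20.5 and 17.5 CPM in 48 h animals TP08, TP10 and TP12, and 23.3, 15.2, 21.6 and 24.1 CPM in TP15 to TP18 at 96 h. All 7 gonadotropin libraries were below the lowest vehicle library, TP16 furthest.

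The log2 fold change of THRA was -0.50 ± 0.16 at 48 h, a level 0.705 times that of vehicle, with an edgeR adjusted p of 0.069. At 96 h it was -0.33 ± 0.15, with an edgeR adjusted p of 0.155, so neither passed. The 48 h difference passed with DESeq2 (adjusted p = 0.0353), in a fit of the 48 h and vehicle groups alone (0.0403), with a stricter count filter (0.0287), with upper-quartile scaling (0.0254) and without TP16 (0.0154). In 9 of 13 alternatives and 9 of 10 single omissions the 48 h difference was not called. The edgeR adjusted p there reached 0.263 without the animals over 20 months and 0.188 without TP08. The authors' deposited table gives THRA an exactTest FDR of 0.1398 at 48 h and 0.2995 at 96 h. The difference of 96 h over 48 h was 0.18 ± 0.15.

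A further row is described in the table as thyroid hormone receptor alpha. It begins 2028 bases after the THRA row ends, on the same strand, at 45887555 to 45893126, and carries the identifier LOC699780 in place of the symbol. It had 30.9, 27.0 and 27.4 CPM in vehicle animals TP07, TP09 and TP11, 19.4, 19.6 and 20.9 CPM in TP08, TP10 and TP12 at 48 h, and 24.1, 15.0, 17.97 and 23.9 CPM in TP15 to TP18 at 96 h. As for THRA, every gonadotropin library was below every vehicle library. Its log2 fold changes were -0.51 ± 0.17 at 48 h and -0.49 ± 0.16 at 96 h, with edgeR adjusted p of 0.0798 and 0.0573. That row was called at 48 h without TP16, and at 96 h without TP15 or TP18, over ranges of -0.55 to -0.44 and -0.58 to -0.37. At both times it was also called with DESeq2, the stricter count filter and upper-quartile scaling, at 48 h in a fit of the 48 h and vehicle groups alone, and at 96 h with limma-voom and with a CPM of at least 0.5 in every library. With the counts of both rows summed, THRA had -0.51 at 48 h and -0.41 at 96 h, with edgeR adjusted p of 0.0513 and 0.0667.

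The opposite strand of this region carries MED24, a Mediator subunit, whose models run from 45814775 to 45888795 and overlap both rows. MED24 averaged 40.0 CPM in vehicle, 47.4 CPM at 48 h and 43.4 CPM at 96 h, and its log2 fold changes of 0.25 ± 0.11 and 0.12 ± 0.11 were not called. The strand setting of the counting is not given in the sources used here, so reads of MED24 and of the receptor rows may not have been told apart.

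THRB fell after gonadotropin at both times. Its row covers chromosome 2, 180931612 to 181303980 on the minus strand, with 15 transcript models. THRB had 12.5, 10.3 and 12.6 CPM in vehicle animals TP07, TP09 and TP11. It had 5.67, 4.15 and 4.37 CPM in TP08, TP10 and TP12 at 48 h, and 5.71, 4.74, 5.52 and 5.56 CPM in TP15 to TP18 at 96 h. The highest gonadotropin library was TP15 with 5.71 CPM, well under the lowest vehicle library, TP09.

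THRB averaged 11.8 ± 1.3 CPM in vehicle, 4.73 ± 0.82 CPM at 48 h and 5.38 ± 0.44 CPM at 96 h (SD, n = 3, 3 and 4). At 48 h against vehicle it fell by 1.32 ± 0.19 on the log2 scale, to 0.402 times the vehicle level, with an edgeR adjusted p of 0.00184. At 96 h it fell by 1.13 ± 0.17, to 0.457 times the vehicle level, with an edgeR adjusted p of 0.00206. The 96 h over 48 h difference was 0.19 ± 0.18, with an interval of -0.2 to 0.57 (edgeR adjusted p = 0.56). Both calls against vehicle held under every alternative and every single omission tried, with log2 fold changes of -1.47 to -1.23 at 48 h and -1.22 to -1.08 at 96 h over the omissions. Summed germ cell markers were lower in every gonadotropin library than in every vehicle library, with 2 of 5 called lower at 48 h and 5 of 5 at 96 h, and their part in the THRB result was not tested.

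**Figure D4:**
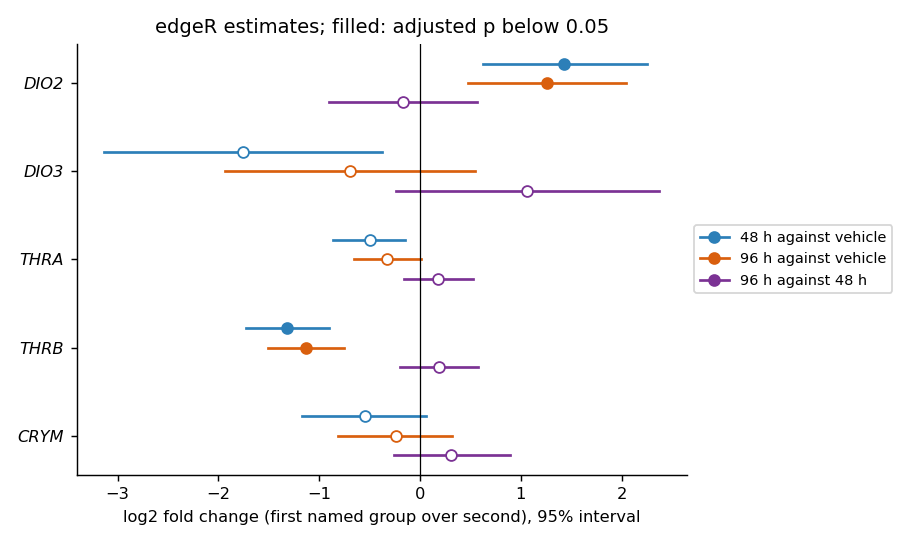
Log2 fold changes of the 5 members (x axis, first named group over the second) with 95% intervals from edgeR, for 48 h against vehicle, 96 h against vehicle and 96 h against 48 h. Filled points, those of DIO2 and THRB against vehicle, passed the adjusted p threshold of 0.05; the intervals of 96 h against 48 h all include 0.

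The balance of the receptors moved with THRB. Per kilobase, log2 THRA over THRB was 4.01, 4.41 and 4.01 in TP07, TP09 and TP11, then 4.62, 5.28 and 4.98 in TP08, TP10 and TP12, and 5.0, 4.66, 4.94 and 5.09 in TP15 to TP18. The ratio was higher in each gonadotropin library than in each vehicle library. Its mean was 4.14 ± 0.23 in vehicle, 4.96 ± 0.33 at 48 h and 4.92 ± 0.19 at 96 h (SD). Adding the second receptor alpha row gave means of 4.29, 5.11 and 4.99. No test was run on the ratios.

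CRYM, the cytosolic binder of T3, showed no call. It lies on chromosome 20, 20316404 to 20341949 on the minus strand. CRYM had 9.97, 6.23 and 10.8 CPM in vehicle animals TP07, TP09 and TP11, 7.49, 4.73 and 6.15 CPM in TP08, TP10 and TP12 at 48 h, and 7.21, 8.14, 5.31 and 9.68 CPM in TP15 to TP18 at 96 h. The groups overlapped, with TP09, TP10 and TP17 holding the lowest value of their group. The log2 fold changes were -0.55 ± 0.28 at 48 h and -0.24 ± 0.26 at 96 h, with edgeR adjusted p of 0.22 and 0.538. The 96 h value turned to 0.21 with age class as a block. That value leans more on TP09, the only vehicle animal of the same age as the 96 h animals, than on TP07 or TP11.

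Levels of different genes were compared per kilobase of merged exons, in TMM-scaled CPM per kilobase. In vehicle testes the order was THRA at 18.6 ± 0.9, CRYM at 5.06 ± 1.36, DIO3 at 3.07 ± 1.35, THRB at 1.06 ± 0.11 and DIO2 at 0.142 ± 0.022 (SD, n = 3). CRYM and DIO3 overlapped there, at 3.51 to 6.06 and 2.23 to 4.63, and the other neighbours did not. At 48 h the levels were 13.1 for THRA, 3.45 for CRYM, 0.908 for DIO3, 0.425 for THRB and 0.384 for DIO2, and the ranges of THRB overlapped those of DIO3 and of DIO2. At 96 h they were 14.9 for THRA, 4.27 for CRYM, 1.905 for DIO3, 0.484 for THRB and 0.340 for DIO2. The range of THRB at 96 h, 0.427 to 0.514, overlapped those of DIO3 and of DIO2. The level of THRA depended on its row, and the second receptor alpha row stood at 23.0 in vehicle, 16.2 at 48 h and 16.4 at 96 h.

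Genes with the profiles most like those of the members were listed from 13401 genes, by the root mean square difference of log2 CPM over the 10 libraries after centring, as a description with no test. The nearest to DIO2 were RPS6KA4, CPA1 and SBSPON, at 0.28 to 0.30 beside a profile SD of 0.69 for DIO2 itself. RPS6KA4, a kinase, averaged 7.85 CPM in vehicle, 19.2 CPM at 48 h and 15.2 CPM at 96 h. Nearest to DIO3 were HRC, PTGER4 and C8H8orf4, at 0.41 to 0.43 beside an SD of 1.05. PTGER4, a prostaglandin E2 receptor, averaged 12.6 CPM in vehicle, 5.02 CPM at 48 h and 8.19 CPM at 96 h. THRA was nearest to ATP8B4, ZNF521 and TNIP1, at 0.07 to 0.1 beside an SD of 0.27. THRB was nearest to SLC16A11, CBLN3 and DDIT4L, at 0.17 to 0.18 beside an SD of 0.57, and SLC16A11, a monocarboxylate transporter family member, averaged 16.2 CPM in vehicle, 6.42 CPM at 48 h and 6.45 CPM at 96 h. CRYM was nearest to ZNF14, TMEM27 and NETO1, at 0.16 to 0.19 beside an SD of 0.37.

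The wider pathway was read from 6 lists of 46 genes, of which 39 had a locus of their own. SLCO1C1 and TTR had no locus of that name among those kept at the CPM cut-off. UBE2G2, RXRA, NCOA3, TBL1X and GPS2 lay in loci joined with other genes. DIO3OS, from a further list of neighbouring genes, had no locus of that name either. At 48 h 3 of 39 genes were called higher and 1 lower, beside the 8.53% and 3.67% of loci given above, and at 96 h 6 were called higher and 3 lower, beside 10.6% and 6.89%. The called shares are near the background. Libraries did not overlap at 48 h for 9 of the 39 genes higher and 6 lower than vehicle (18.1% and 18% of loci). At 96 h they did not for 12 higher and 5 lower (15.9% and 14.9% of loci). Between 96 h and 48 h edgeR called 0 of 39, with 11 at an unadjusted p below 0.05, DESeq2 calling 3 (1 higher, 2 lower) and exactTest calling 2. The median log2 fold change over the 39 genes was 0.08 at 48 h and 0.09 at 96 h. With age class as a block edgeR called 0 of 39 at 96 h. Over all 26813 loci that setting called 1350 higher and 412 lower, against 2836 and 1848 in the main fit. Of the calls at 48 h, those of SLC7A5 and NCOA1 were lost without the animals over 20 months and those of HDAC3 and CDKN1A with upper-quartile scaling.

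Of 5 measured hormone transporters, SLC7A5, the light chain of an amino acid transporter that also carries thyroid hormone, was the one called. That is 1 of 5 higher at each time, beside 8.53% of loci at 48 h and 10.6% at 96 h, and 0 lower, beside 3.67% and 6.89%. SLC7A5 had 14.3, 11.3 and 11.6 CPM in vehicle animals TP07, TP09 and TP11, 22.4, 21.0 and 19.0 CPM in TP08, TP10 and TP12 at 48 h, and 18.01, 23.3, 15.5 and 21.0 CPM in TP15 to TP18 at 96 h. All 7 gonadotropin libraries were above all vehicle libraries. It rose by 0.74 ± 0.17 at 48 h and by 0.65 ± 0.16 at 96 h on the log2 scale (edgeR adjusted p = 0.0159 and 0.0195). The 48 h call was lost without TP08, TP09 or TP11 and the 96 h call without TP09 or TP11, at 0.68 to 0.86 and 0.55 to 0.76 over the omissions.

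Of the other genes of deiodination, 2 were measured. DIO1, type I deiodinase, averaged 0.795 CPM in vehicle, 0.661 CPM at 48 h and 0.830 CPM at 96 h, with a log2 fold change of -0.27 ± 0.56 at 48 h. IYD, which recovers iodide from iodotyrosines, averaged 3.44 CPM in vehicle, 4.44 CPM at 48 h and 2.54 CPM at 96 h. Neither was called by edgeR, DESeq2, exactTest or limma-voom in any comparison, and 0 of the 2 had an unadjusted p below 0.05.

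Deiodinases contain selenocysteine, and 7 genes of its synthesis and insertion were measured. At 48 h edgeR called 0 of 7, with 3 at an unadjusted p below 0.05, 2 called higher by DESeq2 and 0 by exactTest. At 96 h edgeR called 2 of 7 lower and 0 higher, beside 6.89% and 10.6% of loci, while DESeq2 called 2 in each direction. SEPHS2 and TRNAU1AP, also of this list, had log2 fold changes of 0.28 ± 0.10 and 0.40 ± 0.13 at 96 h, not called by edgeR (adjusted p = 0.0804 and 0.0527), with every 96 h library above every vehicle library. PSTK, the kinase that prepares the selenocysteine tRNA, had 13.9, 14.4, 12.1 and 12.03 CPM in TP15 to TP18, against 26.1, 17.1 and 20.5 CPM in TP07, TP09 and TP11, with no overlap. PSTK fell by 0.70 ± 0.15 on the log2 scale at 96 h (edgeR adjusted p = 0.0115), and the call was lost without TP07, over -0.83 to -0.52. SECISBP2, which binds the selenocysteine insertion element of mRNAs such as DIO2, averaged 69.5 CPM at 96 h, against 85.4 CPM in vehicle. SECISBP2 fell by 0.30 ± 0.08 (edgeR adjusted p = 0.0324), and this was lost without TP07, TP09, TP11, TP15 or TP17, over -0.33 to -0.25.

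DIO2 protein is removed by ubiquitination, and 4 genes of that step were measured. At 48 h edgeR called 0 of 4, with 3 at an unadjusted p below 0.05 and 1 called in each direction by DESeq2. WSB1, an adaptor of the ubiquitin ligase that recognises DIO2, averaged 218 CPM in vehicle, 283 CPM at 48 h and 209 CPM at 96 h. Its 3 libraries at 48 h were above all others, with a log2 fold change over vehicle of 0.38 ± 0.12 and an edgeR adjusted p of 0.0591. MARCH6, of the same list, moved the other way at 48 h, by -0.26 ± 0.08 (edgeR adjusted p = 0.0626). Every 48 h library of MARCH6 was below every vehicle library. At 96 h edgeR called 1 of 4 lower and 0 higher, beside 6.89% and 10.6% of loci. USP20, a deubiquitinase of DIO2, averaged 36.8 CPM at 96 h, against 47.1 CPM in vehicle, and fell by 0.36 ± 0.10 (edgeR adjusted p = 0.0386). That call was lost without TP07, TP09, TP11, TP12, TP16, TP17 or TP18, over -0.45 to -0.31.

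Of 11 measured receptor partners and coregulators, HDAC3 was called higher at both times and NCOA1 lower at 48 h. That is 1 of 11 higher and 1 lower at 48 h, beside 8.53% and 3.67% of loci, and 1 higher and 0 lower at 96 h, beside 10.6% and 6.89%. HDAC3, the deacetylase of the corepressor complex, had 38.7, 29.7 and 30.9 CPM in vehicle animals TP07, TP09 and TP11, 42.2, 45.9 and 43.4 CPM in TP08, TP10 and TP12 at 48 h, and 45.0, 44.9, 40.4 and 46.6 CPM in TP15 to TP18 at 96 h. All gonadotropin libraries were above all vehicle libraries. HDAC3 rose by 0.40 ± 0.11 at 48 h and by 0.42 ± 0.11 at 96 h (edgeR adjusted p = 0.0398 and 0.0229). The 48 h call was lost without TP08, TP09, TP10, TP11, TP12, TP15 or TP18, and the 96 h call without TP09 or TP11, over 0.33 to 0.53 and 0.35 to 0.54. NCOA1, a coactivator, averaged 125.5 CPM at 48 h, against 155 CPM in vehicle. NCOA1 fell by 0.31 ± 0.08 (edgeR adjusted p = 0.0323), which was lost without any 1 of the 6 animals compared, over -0.35 to -0.25. The corepressor NCOR1 was not called, with a log2 fold change of 0.01 ± 0.07 at 48 h.

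Of 10 genes known to respond to thyroid hormone in other tissues, 1 was called higher at 48 h, where 8.53% of loci were, and 4 at 96 h, where 10.6% were. None was called lower, against 3.67% and 6.89% of loci. CDKN1A, a cell cycle inhibitor, had 12.4, 9.82 and 6.95 CPM in vehicle animals TP07, TP09 and TP11, 14.9, 16.9 and 15.0 CPM in TP08, TP10 and TP12 at 48 h, and 16.02, 14.3, 15.99 and 14.7 CPM in TP15 to TP18 at 96 h. All 7 gonadotropin libraries were above TP07, the highest vehicle library. CDKN1A rose by 0.68 ± 0.19 at 48 h and by 0.65 ± 0.18 at 96 h (edgeR adjusted p = 0.0391 and 0.0315). The 48 h call was lost without TP08, TP09, TP10, TP11, TP12, TP15, TP17 or TP18, and the 96 h call without TP09, TP11, TP15 or TP17, over 0.49 to 0.90 and 0.46 to 0.87.

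The other calls among responsive genes were at 96 h. BCL3, a nuclear regulator of NF-kB, averaged 3.67 CPM at 96 h, against 1.9 CPM in vehicle, and rose by 0.95 ± 0.22 on the log2 scale (edgeR adjusted p = 0.0156). ME1, malic enzyme, averaged 98.0 CPM at 96 h, against 64.3 CPM in vehicle, and rose by 0.61 ± 0.14 (edgeR adjusted p = 0.0143). NREP averaged 166 CPM at 96 h, against 110 CPM in vehicle, and rose by 0.59 ± 0.15 (edgeR adjusted p = 0.0243). BCL3 was lost without TP07 or TP11 (0.82 to 1.01), ME1 without TP09 or TP11 (0.48 to 0.70) and NREP without TP07, TP11, TP15 or TP17 (0.49 to 0.69). KLF9, among the best known direct targets of the receptor, was not called and averaged 42.0 CPM in vehicle, 30.7 CPM at 48 h and 42.8 CPM at 96 h. HR, of the same list, was not called either, with a log2 fold change of 0.60 ± 0.19 at 96 h (edgeR adjusted p = 0.0532).

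Of 3 measured genes that overlap or lie near the receptors, 1, RARB, was called lower at 96 h, where 6.89% of loci were. RARB, the retinoic acid receptor gene on the same chromosome arm as THRB in human, had 4.16, 2.06, 3.34 and 2.98 CPM in TP15 to TP18, against 9.15, 5.67 and 5.17 CPM in TP07, TP09 and TP11. The groups did not overlap. RARB fell by 1.09 ± 0.27 at 96 h (edgeR adjusted p = 0.0201), and the call was lost without TP07, over -1.26 to -0.79. It was also lost with age class as a block, with age in months as a covariate and without the animals over 20 months, with values as small as -0.67. At 48 h edgeR called 0 of the 3, none had an unadjusted p below 0.05, and DESeq2, exactTest and limma-voom called 0.

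**Figure D5:**
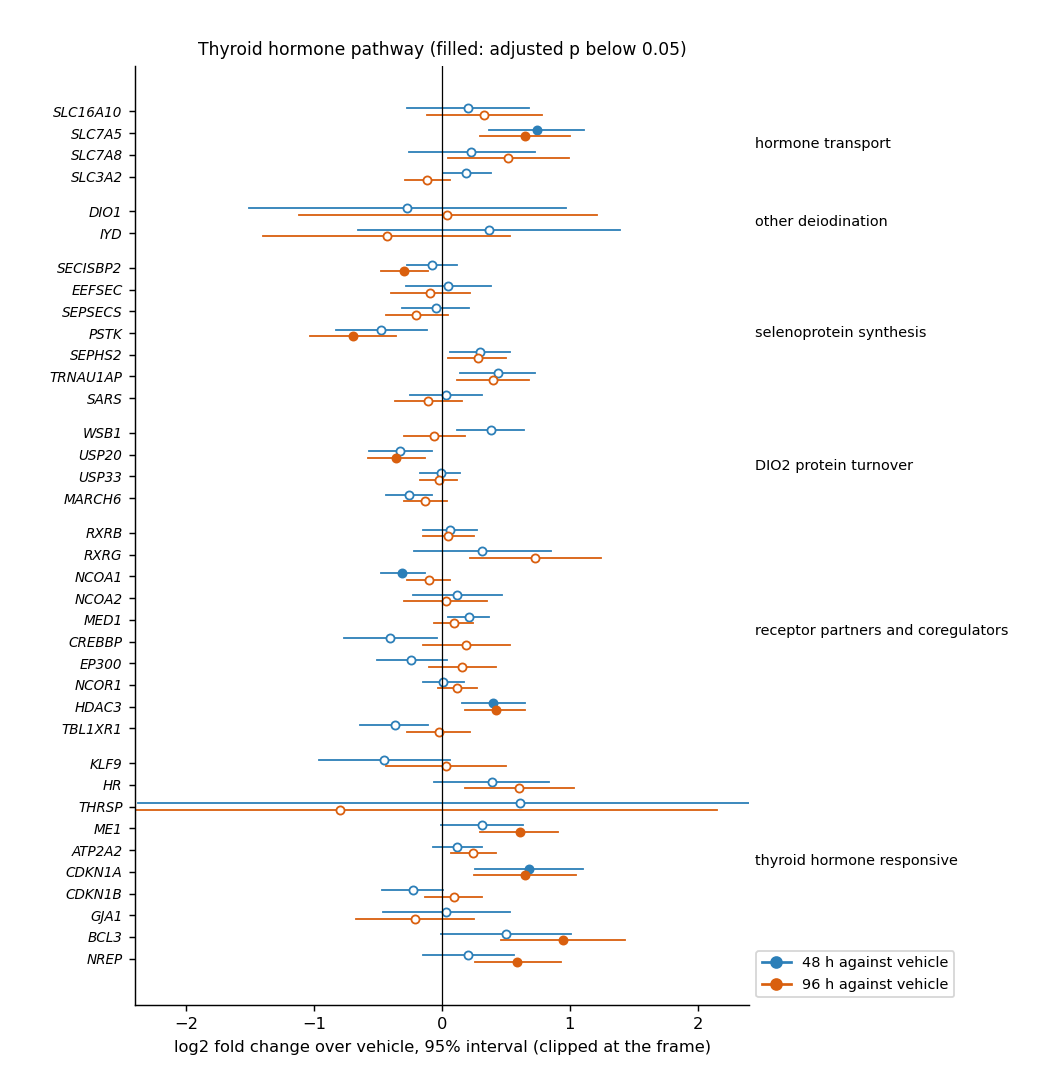
Log2 fold changes over vehicle (x axis) with 95% intervals from edgeR for genes of the 6 pathway lists, 48 h and 96 h side by side. Filled points passed the adjusted p threshold of 0.05, and the interval of THRSP runs past the frame; SLC7A5, HDAC3 and CDKN1A are filled at both times.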

How the data were processed

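Per the submitters' processing notes, the tools included Bowtie2 2.2.8, TopHat2 2.1.1, cutadapt 1.9.1, HTSeq 0.6.1p1, edgeR and Cufflinks 2.2.1 (listed in no order), on rheMac8. The roles and the strand setting are not given in the sources used here. For each locus and animal the authors deposited raw counts and CPM, and beside them their own log2 fold changes and p-values, quoted in sentences that name the authors' deposited table. The table keeps loci that reach a CPM of 1 in at least 3 libraries. Gene symbols missing there were filled from a second deposited table of vehicle values, whose values were not used. Exon lengths and limits come from the deposited transcript models.

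Counts of all 26813 loci were tested in 1 fit of 10 libraries with edgeR 4.0.16 in R 4.3.3 (TMM, robust quasi-likelihood, Benjamini-Hochberg at 0.05), tested on simulated data first. CPM printed here were TMM-scaled. SEs were taken from the F statistic. The precision is limited by 3 or 4 animals per group and, for DIO2, by counts under 100 per library, and values near these counts carry counting error beside the spread between animals. Members and lists were chosen with earlier results of these data known. Named genes were the members, up to 4 called genes of each list by smallest p or up to 2 as values where none was called, and the 3 nearest profiles of each member among loci with 1 symbol and a mean log2 CPM of at least 0. NCOR1, KLF9, HR, MED24, SEPHS2, TRNAU1AP, WSB1 and MARCH6 were named after their values were seen, as were RTL1, DLK1, the unnamed locus and the second receptor alpha row.

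Some list genes are in the counts and medians of their lists but are not reported here. Alternatives were RLE and upper-quartile scaling, 2 count filters, exactTest, DESeq2 1.42.0, limma 3.58.1 voom, fits of the compared groups alone, age in months or age class, omission of the animals over 20 months or of each animal, summed rows and other lengths. Tables and plots used matplotlib 3.10.9, scipy 1.17.1, pandas 2.3.3 and numpy 2.4.6 in Python 3.11.15.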

Additional observations from a re-analysis of the deposited data

Results flagged for a closer look

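In the 96 h group, the 51 genes and loci read here were checked for a library far from the other 3, by Dixon's criterion for 4 values at the 95% level, and 3 stood out, where chance gives about 1 in 20. SARS, seryl-tRNA synthetase, had 123.2 CPM in TP18, above the 102.7 to 106.2 CPM of the others. WSB1 had 238.3 CPM in TP15, with the others at 198.2 to 199.1 CPM. THRSP, a lipogenic gene that responds to thyroid hormone in liver, had 1.809 CPM in TP16, with the others at 0.0784 to 0.152 CPM. A single high THRSP library was also seen in the other groups. TP11 had 2.455 CPM in vehicle, beside 0.1321 and 0.3194 CPM, and TP12 3.527 CPM at 48 h, beside 0.1686 and 0.7937 CPM. The 5 members were not among the 3 that stood out at 96 h.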

How the results depend on the processing

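The calls of THRB against vehicle held under every alternative and omission run. DIO2 at 48 h kept 1.42 (adjusted p = 0.0522) with age class as a block and 1.37 (0.178) without the animals over 20 months, and was not called in either. DIO2 at 96 h was not called with age class as a block (1.15), age in months (1.19), limma-voom (1.14), only the groups compared (1.27) or without the animals over 20 months (1.18). Leaving out single animals gave DIO2 1.29 to 1.57 at 48 h, 1.02 to 1.5 at 96 h and -0.41 to 0.07 for 96 h over 48 h, where TP18 turned the sign. A filter of CPM of at least 5 in 3 or more libraries removed DIO2, so it has no value there. DIO3 at 48 h was called with DESeq2 (-1.73), exactTest (-1.76) and only the groups compared (-1.71), and ranged from -2.11 to -1.34 over the omissions. THRA at 48 h was called with the same filter (-0.57), DESeq2 (-0.48), only the groups compared (-0.46) and upper-quartile scaling (-0.63), and ranged from -0.58 to -0.46 over the omissions; at 96 h it was called with upper-quartile scaling (-0.48). Upper-quartile scaling moved the median of all loci to -0.197 at 48 h and -0.16 at 96 h, so part of those values is a shift shared by all loci. CRYM at 96 h turned to 0.21 with age class as a block. Summing both receptor alpha rows, chosen after seeing the data, changed no THRA call.

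Pathway genes called higher at 96 h numbered 11 with DESeq2, 0 with age class as a block and 2 with upper-quartile scaling (0 to 7 over the omissions); called lower at 96 h, 0 with age class, 1 with age in months, exactTest or only the groups compared, 6 with upper-quartile scaling and 0 without the animals over 20 months (0 to 3). Called higher at 48 h, they numbered 7 with DESeq2, 5 with RLE scaling and 1 with upper-quartile scaling (0 to 3); called lower, 3 with DESeq2 or a CPM of at least 0.5 in every library, 5 with the other filter or upper-quartile scaling, 2 with either age term, and 0 with exactTest, only the groups compared or without the animals over 20 months (0 to 3). For 96 h over 48 h, DESeq2 and exactTest each called 1 higher, and 2, 1 and 1 were called lower with DESeq2, exactTest and the filter at 5. Counts over all 26813 loci moved with the setting too. At 96 h, loci called higher numbered 2836 in the main fit, 3910 with DESeq2, 1350 with age class and 1687 with upper-quartile scaling. Loci called lower at 96 h numbered 1848, 2461, 412 and 3532 in the same order. At 48 h they numbered 2288, 3386, 2278 and 1392 higher, and 985, 1693, 949 and 1732 lower. With exactTest 1410 loci were called lower at 48 h. With the longest transcript model as length, the mean level of THRA was 18.48 and of THRB 0.8753 CPM per kilobase. The log2 ratio of THRA over THRB was then 3.94 in vehicle, 4.76 at 48 h and 4.72 at 96 h. Another length divides every library by another constant, so the differences between groups in this ratio do not change. The cause of the other changes was not tested. No paired analysis was possible because the labels tie no animals together and no number is shared between groups. Blocking on age class sets TP08 with TP07, TP10 with TP09 and TP12 with TP11 by age, and its values stand above. All 96 h animals were 14 months old, so age and group overlap in part. TP09 was the only vehicle animal of 14 months. With age class as a block the 96 h values against vehicle therefore lean more on TP09 than on TP07 or TP11.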
